A study of Mus musculus with 36 samples.

Results

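The Kruppel-like factors (KLFs) are transcription factors that end in a conserved block of zinc fingers, with which they bind GC-rich and CACCC sequences, and they differ in the region before it. *Klf2*, *Klf4*, *Klf5*, *Klf6* and *Klf7* mostly activate their targets, *Klf3* binds the CtBP corepressors, and *Klf9*, *Klf10* and *Klf13* bind the Sin3A corepressor. Several members are induced within minutes to hours by serum, shear stress or other stimuli. In the kidney, *Klf15* is known for the differentiation of podocytes, and *Klf4*, *Klf5* and *Klf6* for roles in podocytes, collecting ducts and tubules.

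The 10 genes described were *Klf2*, *Klf3*, *Klf4*, *Klf5*, *Klf6*, *Klf7*, *Klf9*, *Klf10*, *Klf13* and *Klf15*, taken by gene symbol from the 22761 genes of the deposited values. The values hold 16 KLF symbols, so that 6 were not among the 10: *Klf1*, *Klf8*, *Klf11*, *Klf12*, *Klf14* and *Klf16*. The list was chosen by name with earlier results of these libraries known, in which *Klf6* and *Klf5* were selected on their low values in iSPs relative to stromal progenitors from E11.5 kidneys. No threshold defines the list. Differences between ES-derived and ex-fetu cells are therefore given as a description, with no test of the 10 genes.

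The study derived ureteric bud (eUB), nephron progenitor (iNP) and stromal progenitor (iSP) cells from mouse embryonic stem cells, for building kidney organoids, and set them beside the progenitors of the ureteric bud (UB), the nephron (NP) and the stroma (SP) of E11.5 and E12.5 kidneys. Each of the 9 groups had 4 RNA sequencing libraries, 36 in all. Ex-fetu cells came from CD1 mice, and every sample of them was a pool from the whole litter carried by 1 mouse. Each ES-derived sample pooled the embryoid bodies of a batch of differentiation, from E14 mESC for iNPs and iSPs and from a mESC line with an mCherry reporter, called Sox9-mCherry-mESC in the labels, for eUBs. NPs, iNPs, SPs and iSPs were sorted from cells negative for CD31 and for EpCAM or RET, the nephron progenitors as ITGA8 high and PDGFRA low and the stromal progenitors as ITGA8 low and PDGFRA high. UB cells were sorted by EpCAM and RET, and eUB cells by mCherry and EpCAM. The eUBs thus differed from the iNPs and iSPs in cell line as well as in cell type, and the ES-derived cells from the ex-fetu cells in mouse strain, so that these cannot be told apart from differences of type or origin. For the UB samples the labels disagree on age, since those titled E11.5 carry E12.5 in their cell source and the reverse. The titles were used, and the sign of every UB difference with age rests on them, as does the age of UB in each comparison with eUBs, NP or SP.

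The libraries held between 13.0 and 52.5 M (mega-reads) on genes, with a median of 27.4 M, and 3 reads were worth between 0.0605 and 0.223 normalised CPM (reads of a gene per mega-read of its library, scaled by the normalisation of edgeR). Every one of the 10 genes reached 3 reads in 36 of 36 libraries, *Klf15* with the fewest, 6. Summed levels of marker genes followed the labels: UB markers summed to between 4298 and 4620 normalised CPM in E11.5 UB and between 3239 and 3598 in eUBs, NP markers to between 1134 and 1223 in E11.5 NP and between 489 and 746 in iNPs, and SP markers to between 2669 and 3330 in E11.5 SP and between 3132 and 3309 in iSPs. The iNPs also held SP markers, at a sum of 524 to 795 against 227 to 254 in E11.5 NP. Replicate 1 of each E12.5 group stood apart from replicates 2 to 4 in several KLFs and in heat-shock genes, and in NP and SP also in immediate-early genes, and results that rest on it are given with and without it. In these bulk samples, fewer cells of a type and less RNA per cell cannot be told apart.

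Positions are those of GRCm38. *Klf2* lies on chromosome 8 (72319033-72321656, + strand), *Klf4* on chromosome 4 (55527143-55532466, - strand), *Klf5* on chromosome 14 (99298691-99315036, + strand), *Klf6* on chromosome 13 (5861482-5870394, + strand) and *Klf9* on chromosome 19 (23141226-23168134, + strand). The promoters of *Klf2*, *Klf4*, *Klf6* and *Klf9* are shown. *Klf2*, *Klf4* and *Klf6* had both their highest group mean in eUBs and a raised level in replicate 1 of E12.5 NP and SP, while *Klf9* had neither. *Klf10* had both as well, but its promoter was not matched. *Klf13* and *Klf15*, not shown, were raised in replicate 1 of E12.5 NP and SP only. Each is the 250 bases before the RefSeq start, on the strand of the gene, at chr8:72318812-72319061 for *Klf2*, chr4:55532476-55532725 for *Klf4*, chr13:5861239-5861488 for *Klf6* and chr19:23140976-23141225 for *Klf9*. Capitals mark the half-site of the cAMP response element (TGACG, or CGTCA on the other strand) and the AP-1 site (TGANTCA), the letters bound by CREB and by FOS and JUN proteins.
Klf2: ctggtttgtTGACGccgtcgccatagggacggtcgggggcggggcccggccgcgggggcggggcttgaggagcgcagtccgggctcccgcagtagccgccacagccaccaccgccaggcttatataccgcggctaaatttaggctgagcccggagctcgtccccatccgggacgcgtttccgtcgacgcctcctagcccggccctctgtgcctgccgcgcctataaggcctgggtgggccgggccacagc
Klf4: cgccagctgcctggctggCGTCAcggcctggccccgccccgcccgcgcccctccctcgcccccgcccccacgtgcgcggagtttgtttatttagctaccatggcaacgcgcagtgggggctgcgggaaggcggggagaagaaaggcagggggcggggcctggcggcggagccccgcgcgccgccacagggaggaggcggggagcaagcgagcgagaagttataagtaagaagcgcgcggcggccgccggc
Klf6: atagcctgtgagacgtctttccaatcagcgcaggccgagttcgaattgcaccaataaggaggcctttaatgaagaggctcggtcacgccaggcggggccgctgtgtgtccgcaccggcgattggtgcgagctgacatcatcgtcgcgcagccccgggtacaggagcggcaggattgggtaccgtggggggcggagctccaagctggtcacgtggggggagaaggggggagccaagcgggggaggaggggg
Klf9: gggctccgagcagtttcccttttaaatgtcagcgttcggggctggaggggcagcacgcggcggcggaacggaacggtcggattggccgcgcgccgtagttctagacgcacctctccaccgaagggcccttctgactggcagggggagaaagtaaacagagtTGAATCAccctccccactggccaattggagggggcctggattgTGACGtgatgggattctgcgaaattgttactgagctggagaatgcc
On both strands the half-site was in 5 of the 8 KLF promoters that could be matched (*Klf2*, *Klf4*, *Klf9*, *Klf13* and *Klf15*) and in 17.8% of all 32851 promoters of the same length. The AP-1 site was in *Klf9* and in 6.75% of all promoters. The CACCC box (CACCC) was in 6 of 8 and in 52.0% of all, and the GC box (GGGCGG), which can share its G bases with a CACCC box on the other strand, was in 7 of 8 and in 32.7% of all. Neither the heat-shock element (GAANNTTC, in 6.69% of all promoters) nor the CArG box (in 1.47%) was found in these windows of the 8 genes. The *Klf5* and *Klf10* promoters were not matched.

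The 10 genes covered a wide range of levels. Per kilobase of exon, *Klf6* was the highest of the 10 in E11.5 UB, at 129 normalised CPM per kb, before *Klf5* at 22.7 and *Klf13* at 19.0. In eUBs *Klf6* was again the highest at 158 per kb, but *Klf4* at 46.6 and *Klf2* at 44.0 came next. In iSPs *Klf3* at 9.52 and *Klf13* at 9.36 per kb were the highest and *Klf6* stood at 4.72. The highest KLF transcript per length was thus another gene in iSPs than in SP of either age, where *Klf6* led at 87.2 (E11.5) and 54.8 (E12.5) per kb. *Klf15* was low throughout, at up to 1.53 per kb. *Klf7* shares 39.3% of its exonic bases with *Gm26649* and *Klf3* 3.59% with *Gm20033*, both on the opposite strand, and whether the counting used strand is not stated, so that their values may hold reads of these partners.

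**Figure D1:**
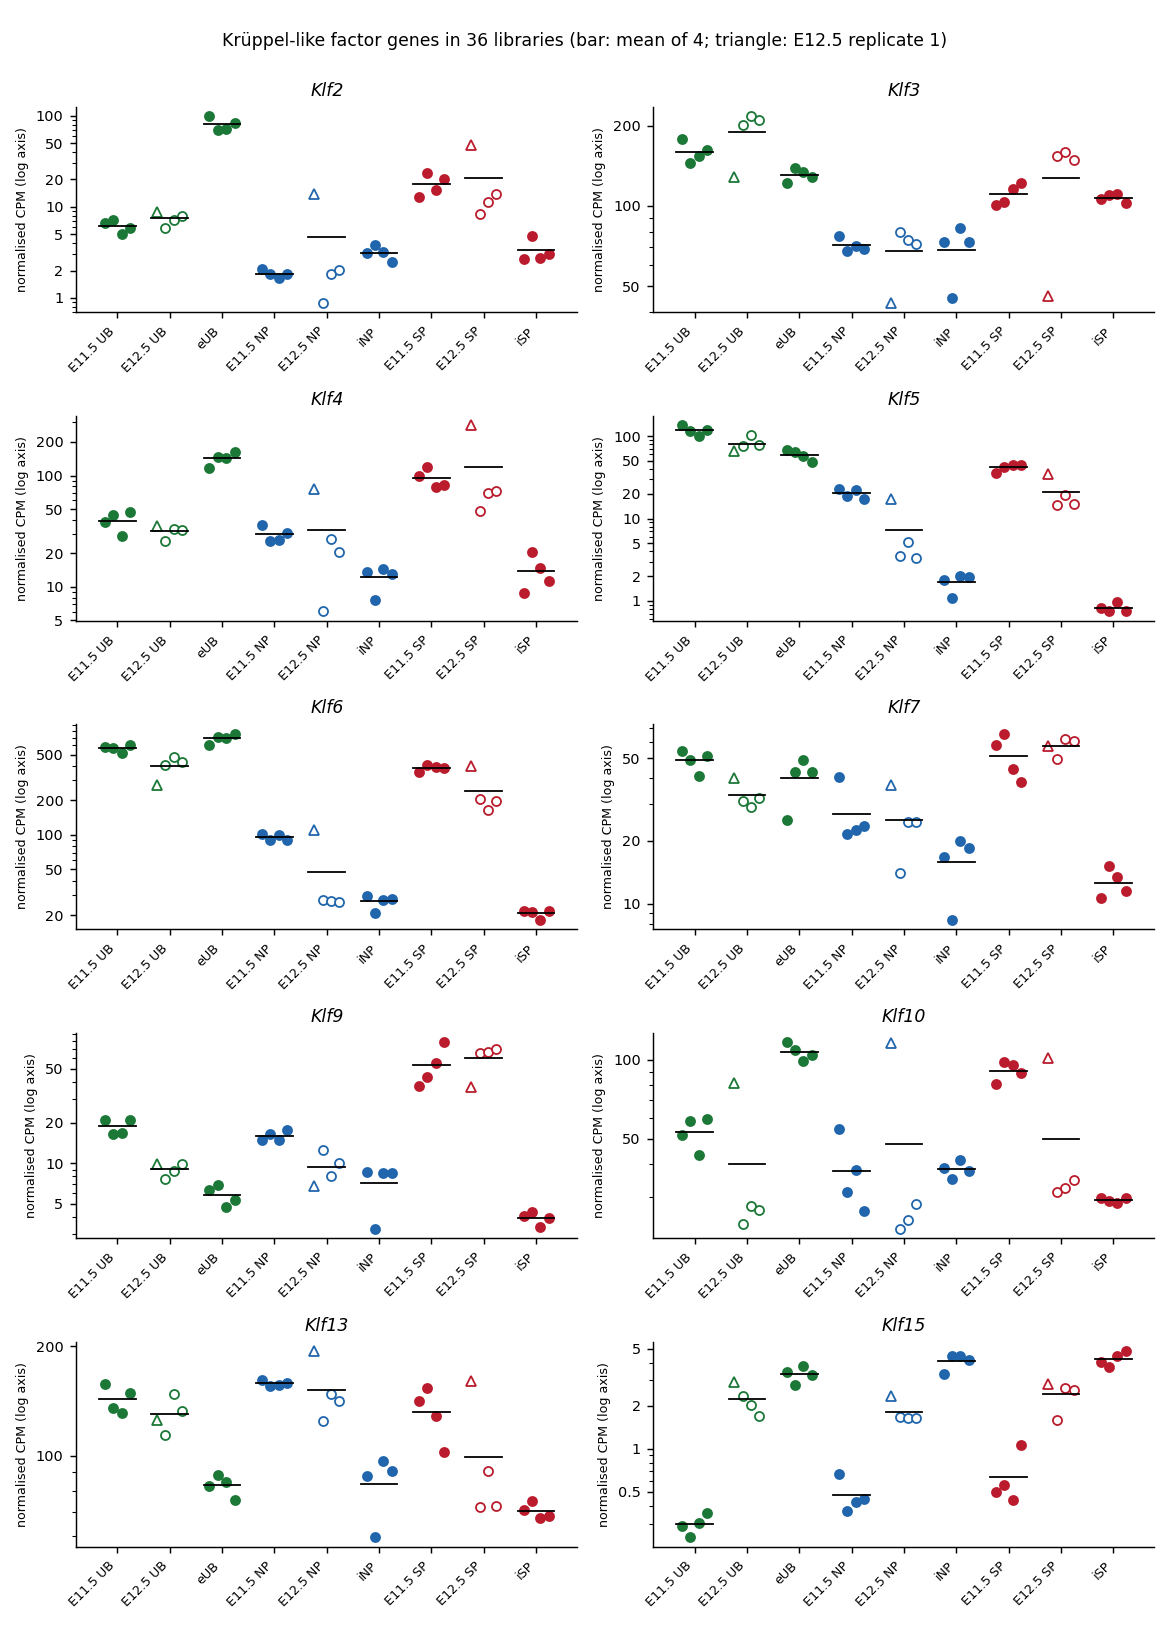
Normalised CPM of the 10 KLFs (log axis) in the 9 groups, with a point for each of the 4 libraries of a group and a bar at its mean (triangles mark E12.5 replicate 1). Klf5 and Klf6 have their lowest group means in the iSPs and iNPs, Klf2 is highest in the eUBs, and replicate 1 of the E12.5 groups lies apart for several genes.

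Between ES-derived and E11.5 cells, *Klf5*, *Klf9* and *Klf13* were lower and *Klf15* was higher in all 3 cell types with no overlap, while *Klf2*, *Klf4* and *Klf10* did not keep 1 direction. In eUBs, *Klf2*, *Klf4*, *Klf10* and *Klf15* were higher than in E11.5 UB in every library and *Klf3*, *Klf5*, *Klf9* and *Klf13* lower in every library, with *Klf6* and *Klf7* overlapping. In iSPs, 8 of the 10 were lower than in E11.5 SP in every library, only *Klf15* was higher and *Klf3* overlapped. In iNPs, 6 were lower than in E11.5 NP in every library (*Klf4*, *Klf5*, *Klf6*, *Klf7*, *Klf9* and *Klf13*), *Klf2* and *Klf15* were higher and *Klf3* and *Klf10* overlapped. Of all genes tested, 28.9% were higher and 27.2% lower in every eUB library, 32.7% and 29.4% in every iSP library, and 33.7% and 28.8% in every iNP library. Nothing is read from the counts of KLFs against these shares, since the list was chosen with these contrasts known.

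Of the activators, *Klf5*, which acts in epithelial proliferation, and *Klf6*, an immediate response gene of injured tissue, had the lowest relative values in iSPs. *Klf5* stood at 35.8, 42.8, 44.4 and 44.3 normalised CPM in the E11.5 SP libraries 1 to 4 and at 0.821, 0.752, 0.960 and 0.743 in the iSP libraries. Its mean was 51.1-fold lower in iSPs, and on the log2(value + 1) scale, which understates the change of low genes, the difference was -4.55 ± 0.11 (SE, n = 4 and 4). No iSP library came near an SP library. *Klf6* stood at 356, 404, 390 and 382 in E11.5 SP and at 21.6, 21.3, 18.1 and 21.8 in iSPs, 18.5-fold lower, with a log2 difference of -4.15 ± 0.08. The iSPs thus held *Klf6* reads in number, unlike *Klf5*, but at a level below that of every ex-fetu library.

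The same genes were low in iNPs by less. *Klf5* stood at 22.7, 19.0, 21.9 and 17.5 in E11.5 NP and at 1.79, 1.08, 1.99 and 1.93 in iNPs, 11.9-fold lower. *Klf6* stood at 103, 90.7, 99.1 and 91.0 in E11.5 NP and at 29.3, 20.95, 27.2 and 27.7 in iNPs, 3.64-fold lower. Against E12.5 NP, however, *Klf6* of iNPs overlapped: E12.5 NP had 109 in replicate 1 and 27.2, 26.8 and 26.1 in the others. The log2 difference to E12.5 NP was -0.53 ± 0.41, and -0.03 ± 0.14 without replicate 1. For *Klf5* the log2 difference to E12.5 NP was -1.36 ± 0.41, and -0.89 ± 0.19 without replicate 1.

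In eUBs both genes lay much closer to the ureteric bud. *Klf5* stood at 137, 116, 100.02 and 119 in E11.5 UB and at 67.3, 63.8, 58.1 and 49.1 in eUBs, below every E11.5 library but overlapping E12.5 UB, whose libraries had 66.0, 75.8, 102 and 77.8. *Klf6* stood at 581, 570, 513 and 609 in E11.5 UB and at 602, 718, 699 and 762 in eUBs, with a log2 difference of 0.29 ± 0.09. The 2 groups overlapped, and against E12.5 UB (273, 407, 478 and 433) the eUBs were higher in every library.

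*Klf2*, known for its response to shear stress in endothelium, was the KLF that stood highest in eUBs relative to the ureteric bud. E11.5 UB had 6.59, 7.12, 5.10 and 5.80 normalised CPM and eUBs 98.8, 70.8, 72.5 and 82.9, 13.2-fold more, with a log2 difference of 3.52 ± 0.13. Every eUB library exceeded every other library of the series. In iSPs *Klf2* went the other way, from 12.9, 23.5, 15.3 and 20.03 in E11.5 SP to 2.71, 4.80, 2.77 and 3.07, while iNPs with 3.13, 3.84, 3.19 and 2.46 lay above E11.5 NP with 2.07, 1.81, 1.66 and 1.85. Endothelial markers, which include genes of the cells best known for *Klf2*, summed to 77.5 to 124 in iNPs and 19.2 to 50.9 in E11.5 NP, with 10 of 10 called higher. They summed to 61.2 to 87.9 in iSPs and 37.1 to 69.7 in E11.5 SP, with 6 called higher and *Flt1* lower, and to 26.5 to 28.7 in eUBs and 31.6 to 42.8 in E11.5 UB, with *Tek* called higher and 4 lower. Of all genes, 35.5% were called higher and 29.2% lower in iNPs, 35.5% and 32.1% in iSPs, and 32.1% and 28.5% in eUBs. The sums did not overlap in iNPs, where they lay on the same side of E11.5 cells as *Klf2*, nor in eUBs, where they lay on the opposite side, and they overlapped in iSPs. Their part in the *Klf2* values was not tested.

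*Klf4*, a reprogramming factor and an epithelial differentiation factor, differed from E11.5 cells in the same direction as *Klf2* in eUBs and iSPs and in the opposite direction in iNPs. E11.5 UB had 37.9, 44.0, 28.4 and 47.3 and eUBs 116, 146, 143 and 164, 3.61-fold more. E11.5 SP had 98.1, 119, 78.5 and 82.6 and iSPs 8.75, 20.5, 14.7 and 11.2, 6.86-fold less. E11.5 NP had 36.1, 25.7, 26.4 and 30.3 and iNPs 13.7, 7.67, 14.4 and 13.0, 2.43-fold less. No E11.5 library overlapped the ES-derived libraries of its type. The iNPs did overlap E12.5 NP, which had 75.9 in replicate 1 and 6.01, 26.8 and 20.7 in the others. *Klf7*, which acts in neuronal and adipose development, was 4.08-fold lower in iSPs than in E11.5 SP and 1.71-fold lower in iNPs than in E11.5 NP, and it overlapped in eUBs, with 25.2 to 48.9 against 41.0 to 54.4.

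*Klf3* was the most even of the 10 between ES-derived and E11.5 cells over the 3 types. E11.5 SP had 101, 104, 116 and 122 and iSPs 102 to 110.3, and the log2 differences were -0.04 ± 0.08 in stromal and -0.09 ± 0.17 in nephron progenitors. In eUBs it was lower in every library, at 122 to 139 against 145 to 178 in E11.5 UB. Of the genes that bind Sin3A, *Klf9*, which responds to thyroid hormone and glucocorticoids, was 13.7-fold lower in iSPs (37.3, 43.6, 55.3 and 78.9 in E11.5 SP, 4.06, 4.33, 3.40 and 3.95 in iSPs), 3.20-fold lower in eUBs and 2.22-fold lower in iNPs. *Klf13* was 1.73-fold lower in eUBs, 1.87-fold in iSPs and 1.89-fold in iNPs, the member whose ratio to E11.5 cells was most alike in the 3 types. *Klf10*, an immediate target of TGF-beta, was 2.01-fold higher in eUBs, at 116, 109, 98.6 and 104 against 51.7, 58.2, 43.5 and 59.3. It was 3.10-fold lower in iSPs, at 29.7, 29.0, 28.6 and 29.7 against 80.5, 98.3, 95.7 and 88.6. Against E12.5 SP the log2 difference of *Klf10* in iSPs was smaller, -0.56 ± 0.33, and -0.17 ± 0.07 without replicate 1 (n = 4 and 3). In iNPs *Klf10* overlapped, at 35.1 to 41.6 against 26.5 to 54.6. *Klf15* was the only member higher in all 3 ES-derived types: 0.291, 0.241, 0.302 and 0.356 in E11.5 UB against 3.42, 2.77, 3.78 and 3.26 in eUBs, 0.437 to 1.066 in E11.5 SP against 3.73 to 4.83 in iSPs, and 0.369 to 0.662 in E11.5 NP against 3.31 to 4.46 in iNPs. It was higher in iSPs and iNPs also against E12.5 cells, and overlapped between eUBs and E12.5 UB.

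**Figure D2:**
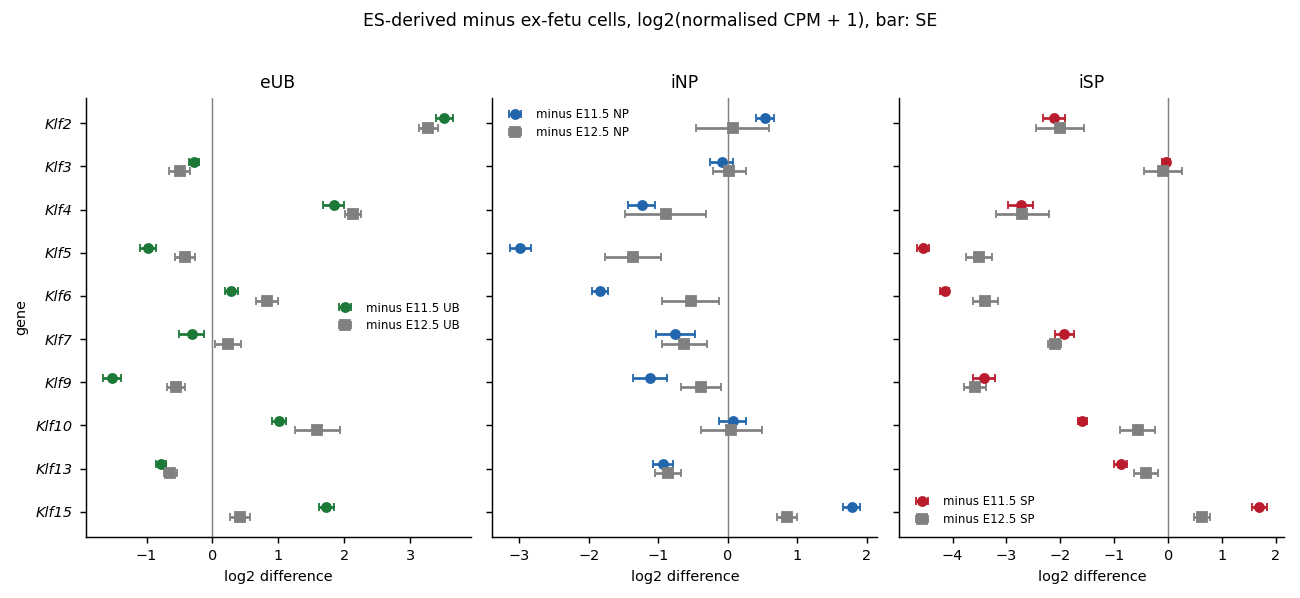
Difference of ES-derived minus ex-fetu cells in log2(normalised CPM + 1) for each of the 10 KLFs in the 3 cell types, against E11.5 and against E12.5 cells, with the standard error (n = 4 and 4). Klf5 at -4.55 and Klf6 at -4.15 in iSPs are the lowest of the comparisons with E11.5 cells, and Klf2 at 3.52 in eUBs is the highest.

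Other cells in the sorts moved with some of these contrasts. UB markers, from the cells in which *Klf5* and *Klf6* were highest among ex-fetu cells, summed to 145 to 332 in E11.5 SP and to 85.3 to 96.5 in iSPs, with 6 of 9 called lower and *Hoxb7* higher. In E12.5 SP they summed to 91.8 to 125, which overlapped the iSPs, and the log2 differences of iSPs to E12.5 SP were -3.50 ± 0.24 for *Klf5* and -3.40 ± 0.23 for *Klf6*. NP markers summed to 305 to 329 in iSPs and to 132 to 189 in E11.5 SP, with *Meox1* and *Itga8* called higher and 3 of 7 lower. Of all genes, 35.5% were called higher and 32.1% lower in iSPs than in E11.5 SP. Macrophage markers summed to 80.8 to 135 in E11.5 UB and to 0.923 to 1.503 in eUBs, where *Cx3cr1*, *C1qa*, *Fcgr1* and *Tyrobp* were at 0. Of these markers 10 of 10 were called lower, against 28.5% of all genes. They could pass the filter only with the E11.5 UB libraries, where they were high, so that these calls add nothing to the sums. Erythroid markers summed to between 83.0 and 1583 in E11.5 SP and between 0.0338 and 0.0966 in iSPs. *Klf1*, the KLF of erythroid cells, had means between 0.0899 and 0.510 in the 9 groups. The part of these cells in the KLF values was not tested.

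Replicate 1 of the E12.5 groups set the KLFs apart from the other replicates. In E12.5 NP, replicate 1 was above replicates 2 to 4 for 8 of the 10 genes and below all of them for 2, in E12.5 SP above for 7 and below for 2, and in E12.5 UB above for 6 and below for 3. Of all genes, 23.9%, 31.9% and 34.6% lay above and 42.6%, 43.9% and 42.7% below in E12.5 NP, SP and UB. *Klf10* was raised in all 3 sorts: 115.1 against 22.8, 24.5 and 28.3 in NP, 101 against 31.5, 32.7 and 34.8 in SP, and 81.5 against 23.9, 27.9 and 26.9 in UB. *Klf4* stood at 284 in SP replicate 1, against 48.4, 69.1 and 73.2, and *Klf2* at 48.4 against 8.43, 11.4 and 13.9. *Klf5* and *Klf6* were raised in NP and SP replicate 1 and not in UB: *Klf6* was 1.99 higher on the log2 scale than the mean of the others in NP, 1.06 higher in SP and 0.68 lower in UB (-0.68). *Klf3* went the other way in all 3, by -0.79 in NP, -1.73 in SP and -0.70 in UB.

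The same libraries had raised heat-shock genes. Heat-shock genes summed to 3788 in NP replicate 1, where the lowest library of that group had 1254, to 7614 in SP replicate 1 (lowest 1245) and to 2117 in UB replicate 1 (lowest 1340). Immediate-early genes summed to 2930 in NP replicate 1 (lowest 1259), and to 9460 in SP (lowest 2385). In UB replicate 1 they summed to 3567, in a group that ran from 3275 to 3567 with a median of 3529. UB replicate 1 also held the highest sums of its group for markers of several other cells: 579 for SP (lowest 13.5), 313 for NP (lowest 28.7), 138 for endothelial (lowest 23.1) and 89.7 for erythroid markers (lowest 6.03). Its UB marker sum, 2278, and its macrophage marker sum, 64.0, were the lowest of its group. UB markers were highest in replicate 1 of NP, at 112.8 (lowest 40.2), and of SP, at 125.0 (lowest 91.8). The NP markers of NP replicate 1 (982) and the SP markers of SP replicate 1 (2774) were the lowest of their groups. So were the endothelial markers of NP replicate 1 (18.7) and the erythroid markers of SP replicate 1 (288). Whether stress genes or other cells had a part in the KLF values of replicate 1 was not tested.

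**Figure D3:**
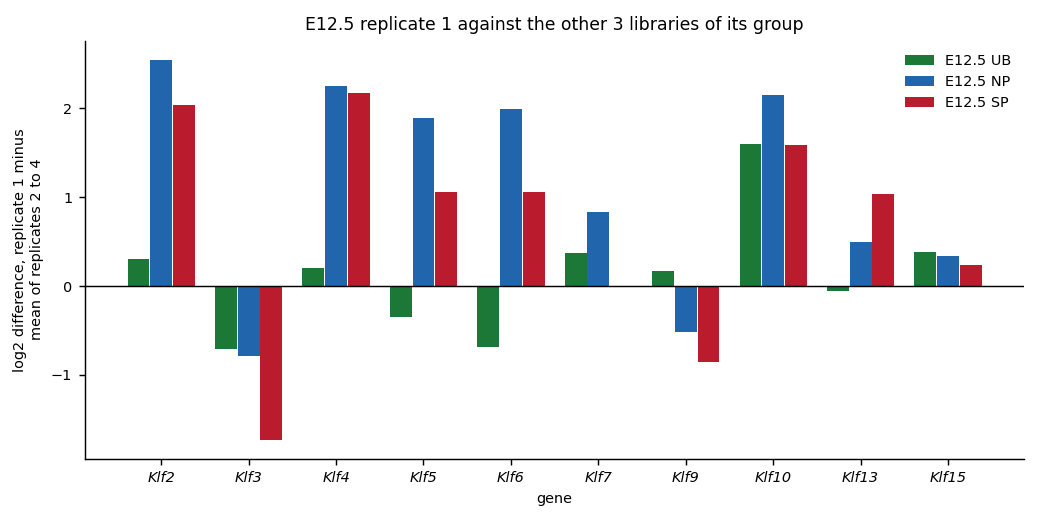
Log2(normalised CPM + 1) of E12.5 replicate 1 minus the mean of replicates 2 to 4, for the 10 KLFs in NP, SP and UB. Klf10 lies above 0 in all 3 sorts (2.15, 1.59 and 1.60) and Klf3 below 0 in all 3.

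The comparison of E12.5 with E11.5 cells asks how the KLFs stand a day later in the same sorts. In NP, *Klf5* and *Klf9* fell and *Klf15* rose among the 10 genes, all of which passed the filter on low values. Of all 13414 genes tested, 2.74% were called higher and 3.59% lower. *Klf15* rose from 0.662, 0.369, 0.426 and 0.444 to 2.34, 1.67, 1.63 and 1.65, by 0.93 ± 0.13 on the log2 scale (limma, adjusted p = 0.0057), with no overlap. It passed the filter through the E12.5 libraries alone, and with no filter its adjusted p was 0.007. *Klf5* fell by 1.63 ± 0.40 (adjusted p = 0.045), from 17.5 to 22.7 at E11.5 to 17.4, 3.51, 5.21 and 3.32, with replicate 1 close to the E11.5 libraries. *Klf9* fell by 0.74 ± 0.17 (adjusted p = 0.039), from 14.8 to 17.7 to 6.77, 12.7, 8.10 and 9.98, with no overlap. The calls of *Klf5* and *Klf9* were lost when any E11.5 NP library or replicate 3 or 4 of E12.5 NP was left out, and that of *Klf5* also without replicate 2, with adjusted p of 0.068 to 0.13. Both were lost with no filter (0.069 for *Klf5*, 0.062 for *Klf9*), and that of *Klf5* also with a filter of 5 (0.056) or edgeR (0.12). When replicate 1 of E12.5 NP was left out, *Klf5* fell by 2.10 ± 0.16 (adjusted p = 0.00032), and *Klf6*, which had not passed the test with all libraries (-1.30 ± 0.40, adjusted p = 0.088), fell by 1.80 ± 0.09 (adjusted p = 0.00012), while 9.31% of all genes were called higher and 8.06% lower.

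In SP, the E11.5 libraries are shared with the contrast on which *Klf5* and *Klf6* were selected, so that both are given as values with no test. Of the other 8 genes, *Klf15* rose and 7 did not pass the test, where 3.73% of all genes were called higher and 4.80% lower. The log2 difference of *Klf5* was -1.05 ± 0.25, from 35.8 to 44.4 at E11.5 to 34.8, 14.8, 19.2 and 14.8 at E12.5. *Klf15* rose by 1.06 ± 0.18 (adjusted p = 0.0092), from 0.501, 0.559, 0.437 and 1.066 to 2.82, 1.59, 2.68 and 2.57, and the adjusted p was 0.015 with no filter. With replicate 1 of E12.5 SP left out, *Klf10* and *Klf13* fell and *Klf3* and *Klf15* rose among the 8, where 10.9% of all genes were called lower and 11.0% higher. There *Klf10* fell by 1.43 ± 0.11 (adjusted p = 0.00027), and *Klf13* by 0.73 ± 0.16 (adjusted p = 0.013), and *Klf3* rose by 0.48 ± 0.10 (adjusted p = 0.013). The differences of *Klf5* and *Klf6* were then -1.32 ± 0.14 and -1.01 ± 0.11.

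In UB, by the ages of the titles, 4 members fell (*Klf5*, *Klf6*, *Klf7* and *Klf9*) and *Klf15* rose, where 12.3% of all genes were called lower and 14.2% higher. *Klf15* rose from 0.241 to 0.356 to 2.91, 2.32, 2.01 and 1.69, by 1.30 ± 0.15 on the log2 scale (adjusted p = 0.00075, and 0.00094 for *Klf15* with no filter), and it passed the filter through the E12.5 libraries alone. *Klf9* fell by 0.97 ± 0.12 (adjusted p = 0.0011), from 21.02, 16.5, 16.7 and 20.9 to 9.95, 7.67, 8.82 and 9.85. Neither overlapped. *Klf7* fell by 0.55 ± 0.12 (adjusted p = 0.0089), *Klf5* by 0.56 ± 0.14 (adjusted p = 0.016) and *Klf6* by 0.54 ± 0.15 (adjusted p = 0.030). The call of *Klf6* was lost without E11.5 UB replicate 1, 2 or 4 or E12.5 UB replicate 2 and that of *Klf5* without E11.5 UB replicate 1, with adjusted p of 0.051 to 0.084. *Klf4*, at -0.29 with all libraries, was called without E11.5 UB replicate 3 (adjusted p = 0.035). Without replicate 1 of E12.5 UB, *Klf10* also fell, by 0.99 ± 0.10 (adjusted p = 1.5e-05), and *Klf3* rose by 0.39 ± 0.07 (adjusted p = 0.00059), where 19.1% of all genes were called lower and 24.5% higher. *Klf15* passed in the same direction in all 3 sorts, and in none of them would it have met the filter without the E12.5 libraries, where it was high. Heat-shock genes moved with age as well: they summed to 4049 to 4162 in E11.5 UB and 1340 to 2117 in E12.5 UB, with 6 of 6 called lower, and immediate-early genes had 3 called higher and 3 lower of 15. In NP the heat-shock sum was 2841 to 3377 at E11.5 and had a median of 1463 at E12.5 (1 of 6 called lower), and the immediate-early sum was 1739 to 2182 and then had a median of 1317 (1 of 15 called higher). In SP the heat-shock sum was 3939 to 5297 and then had a median of 1463, and the immediate-early sum 3417 to 4051 and then 2732. Their part in the KLF differences with age was not tested. With upper-quartile scaling 40.3% of the calls over all genes were higher, against 53.5% here.

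Whether the change with age differed between NP and SP was tested as an interaction. It was called for 0 of the 8 genes other than *Klf5* and *Klf6* by limma and by edgeR, and 1 had an unadjusted p under 0.05, where 1.60% of all genes were called higher and 1.09% lower. Without replicate 1 of both E12.5 groups, *Klf10* fell by more in SP (0.91 ± 0.26, adjusted p = 0.045). There 3.84% of all genes were called higher and 3.73% lower. The differences of *Klf6* and *Klf5*, not tested for the reason above, were -0.79 ± 0.13 and -0.78 ± 0.21. Without E12.5 SP replicate 1 alone, *Klf9* was called (adjusted p = 0.037).

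**Figure D4:**
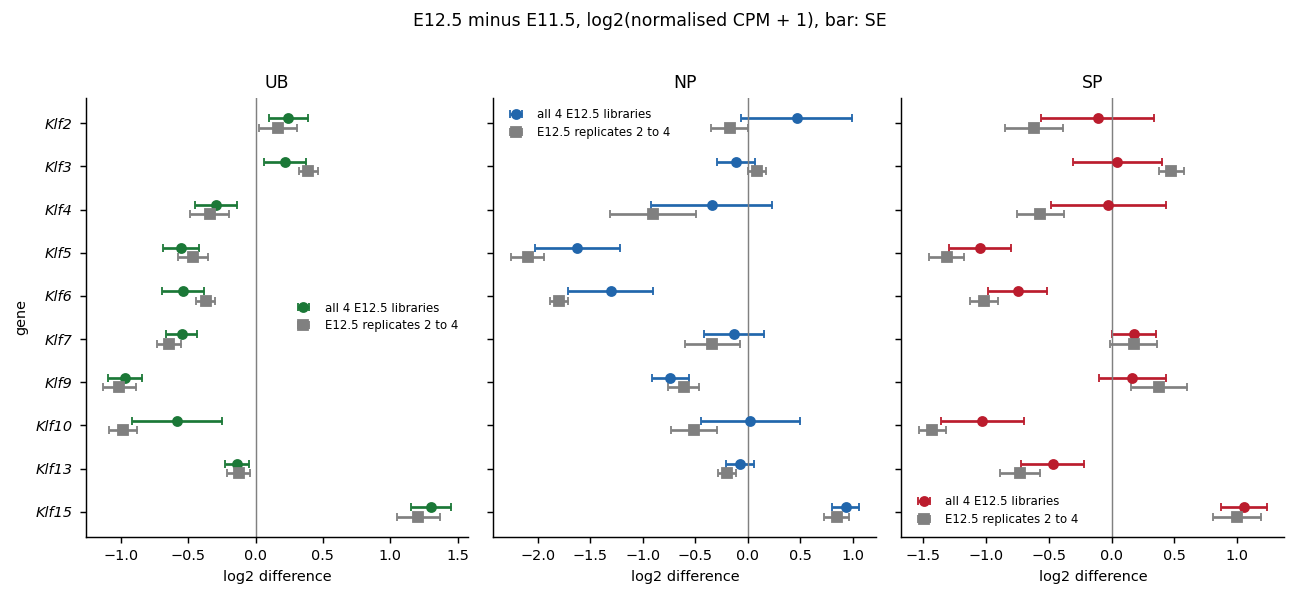
Difference of E12.5 minus E11.5 in log2(normalised CPM + 1) for the 10 KLFs in NP, SP and UB, with all libraries and without replicate 1 of the E12.5 group, with the standard error. Klf15 lies above 0 and Klf5 below 0 in all 3 sorts under both.

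Among E11.5 cells, the KLFs were mostly lowest in NP. Comparisons with E11.5 SP share its libraries with the contrast on which *Klf5* and *Klf6* were selected, so that these genes are given there as values with no test. Of the other 7 that passed the filter, 6 were lower in NP than in SP, where 22.2% of all genes were called lower and 21.0% higher. *Klf2* was 1.66 to 2.07 in NP, 12.9 to 23.5 in SP and 5.10 to 7.12 in UB. The log2 difference of *Klf2* between NP and SP was -2.70 ± 0.18 (adjusted p = 3e-06). *Klf4* was lower in NP by -1.64 ± 0.15 (adjusted p = 2.9e-05), *Klf9* by -1.63 ± 0.20 (adjusted p = 0.00017), *Klf10* by -1.29 ± 0.19 (adjusted p = 0.00053), *Klf7* by -0.92 ± 0.22 (adjusted p = 0.0087) and *Klf3* by -0.62 ± 0.09 (adjusted p = 0.00039). The differences of *Klf5* and *Klf6* were -1.01 and -1.99. *Klf13* was the exception, at 156 to 162 in NP and 102 to 153 in SP, a difference of 0.28 that did not pass the test (adjusted p = 0.086), but did without E11.5 SP replicate 2 (adjusted p = 0.033). *Klf15* was below the filter in the 3 comparisons of E11.5 cells. Immediate-early genes were also lowest in NP, at a sum of 1739 to 2182 against 2879 to 4159 in UB and 3417 to 4051 in SP, and so were heat-shock genes, at 2841 to 3377 against 4049 to 4162 and 3939 to 5297. Their part in the KLF differences was not tested.

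Against NP, UB was higher for 7 members (*Klf2*, *Klf3*, *Klf4*, *Klf5*, *Klf6*, *Klf7* and *Klf10*), where 28.7% of all genes were called higher and 31.5% lower. *Klf6* was higher by 2.55 ± 0.07 (adjusted p = 1.5e-11) and *Klf5* by 2.48 ± 0.11 (adjusted p = 1e-09). *Klf2* was higher by 1.32 ± 0.12 and *Klf3* by 1.15 ± 0.07 (adjusted p = 1.4e-06 and 4.2e-08). *Klf4* (0.39 ± 0.15, adjusted p = 0.042) lost its call when 1 of NP replicates 2 to 4 or UB replicates 1, 2 or 4 was left out, at 0.060 to 0.13, and *Klf10* (0.53 ± 0.18, adjusted p = 0.025) without replicate 2 or 4 of either group, at 0.070 to 0.073. The call of *Klf4* was also lost with no filter (0.061), quantile normalisation (0.06) and upper-quartile scaling (0.055). *Klf13* (adjusted p = 0.071) was called lower without UB replicate 1 (adjusted p = 0.029).

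Between UB and SP at E11.5 the members split. *Klf3* was higher in UB by 0.53 ± 0.10 (adjusted p = 0.00091), and the differences of *Klf5* and *Klf6* were 1.47 and 0.57. *Klf2* (-1.38 ± 0.18, adjusted p = 0.00011), *Klf4* (-1.25 ± 0.18, adjusted p = 0.00016), *Klf9* (-1.42 ± 0.21, adjusted p = 0.00021) and *Klf10* (-0.77 ± 0.12, adjusted p = 0.00025) were lower in UB, where 26.8% of all genes were called higher and 26.7% lower. *Klf7* (-0.05) and *Klf13* (0.13) did not pass the test. *Klf9* was thus above every UB and NP library in every SP library, at 37.3 or more against at most 21.02. Erythroid markers moved with it: they summed to 83.0 to 1583 in E11.5 SP, 6.11 to 57.1 in UB and 14.1 to 75.5 in NP, with 5 of 5 tested called lower in UB and in NP, and their part in the *Klf9* values was not tested.

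At E12.5 the differences of *Klf5*, *Klf6* and *Klf9* between UB and SP passed the test with all libraries. UB was higher than SP for *Klf5* by 1.96 ± 0.26 (adjusted p = 0.00026) and for *Klf6* by 0.78 ± 0.27 (adjusted p = 0.043), and lower for *Klf4* by -1.51 ± 0.47 (adjusted p = 0.025), *Klf7* by -0.78 ± 0.13 (adjusted p = 0.00077) and *Klf9* by -2.56 ± 0.21 (adjusted p = 1.1e-05), where 24.6% of all genes were called higher and 21.8% lower. *Klf9* stood at 9.95, 7.67, 8.82 and 9.85 in UB and at 36.9, 65.6, 66.6 and 70.3 in SP. Erythroid markers summed to 288 to 2902 in E12.5 SP, 6.03 to 89.7 in UB and 3.55 to 73.4 in NP. *Klf6* lost its call without any of replicates 2 to 4 of either group (adjusted p of 0.092 to 0.11). It also lost the call with no filter (0.055), upper-quartile scaling (0.058), the replicate number as a block (0.096) or edgeR (0.091). *Klf4* lost its call without any of UB replicates 2 to 4 (0.052 to 0.065). *Klf2* gained one without SP replicate 2 (0.044) and *Klf13* without SP replicate 1 (0.0011). Without replicate 1 of both groups, the difference of *Klf6* was larger, 1.21 ± 0.10 (adjusted p = 4.8e-06), and 4 members were higher and 5 lower, adding *Klf3* (0.44) and *Klf13* (0.73) to the first and *Klf2* (-0.59) and *Klf10* (-0.32) to the second, where 31.5% of all genes were called higher and 29.5% lower.

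UB at E12.5 was higher than NP for *Klf5* by 3.55 ± 0.42 (adjusted p = 0.00018), *Klf6* by 3.32 ± 0.44 (adjusted p = 0.00033) and *Klf3* by 1.48 ± 0.23 (adjusted p = 0.00092), where 18.4% of all genes were called higher and 14.3% lower. Without replicate 1 of both groups, the differences of *Klf5* and *Klf6* were 4.11 ± 0.18 and 3.99 ± 0.09, and *Klf2* was higher as well, by 1.66 ± 0.21 (adjusted p = 0.00033), against 22.7% of all genes called higher and 21.9% lower. Without NP replicate 1 alone, *Klf7* was called too (adjusted p = 0.042). With quantile normalisation 44.8% of the calls over all genes were higher, against 56.3% here.

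NP at E12.5 was lower than SP for *Klf2*, *Klf5*, *Klf6*, *Klf7* and *Klf9*, where 17.8% of all genes were called lower and 17.0% higher. *Klf9* was lower by -2.54 ± 0.25 (adjusted p = 3.8e-05), *Klf6* by -2.54 ± 0.47 (adjusted p = 0.0022), *Klf7* by -1.23 ± 0.25 (adjusted p = 0.0040), *Klf5* by -1.59 ± 0.46 (adjusted p = 0.025) and *Klf2* by -2.13 ± 0.68 (adjusted p = 0.038). NP and SP samples with the same number deviated together. A fit with that number as a block called 8 members, adding *Klf3* (-0.78, adjusted p = 0.0056), *Klf4* (-1.95, adjusted p = 0.00023) and *Klf13* (0.67, adjusted p = 0.0018), where 30.2% of all genes were called higher and 27.6% lower. *Klf2* lost its call without NP replicates 2, 3 or 4 or SP replicates 1, 3 or 4 (adjusted p of 0.060 to 0.098) and *Klf5* without NP replicates 2, 3 or 4 or SP replicates 1 or 3 (0.052 to 0.070). *Klf4* gained one without NP replicate 1 (0.016), and *Klf3* and *Klf13* without SP replicate 1 (0.0016 and 0.0025). Without replicate 1 of both groups, 8 members were lower and *Klf13* was higher, by 0.81 ± 0.13 (adjusted p = 0.0016), where 22.1% of all genes were called lower and 22.4% higher.

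Among ES-derived cells, most KLFs were higher in eUBs than in the other types. Comparisons with iSPs share their libraries with the contrast on which *Klf5* and *Klf6* were selected, so that their values are again given with no test. Of the other 8 genes, 7 were higher in eUBs than in iSPs and *Klf15* was lower, where 32.0% of all genes were called higher and 32.7% lower. *Klf2* was higher by 4.26 ± 0.16 (adjusted p = 1.4e-08), *Klf4* by 3.33 ± 0.22 (adjusted p = 6.9e-07), *Klf10* by 1.83 ± 0.07 (adjusted p = 9.5e-09) and *Klf7* by 1.56 ± 0.20 (adjusted p = 7.1e-05). The differences of *Klf5* and *Klf6* were 5.05 and 5.0. *Klf13* (0.23, adjusted p = 0.016) lost its call without iSP replicate 3 or eUB replicate 2 (both 0.052), and *Klf15* (-0.29 ± 0.11, adjusted p = 0.039) without iSP replicates 1, 3 or 4 or eUB replicates 2 or 4 (0.059 to 0.11). The call of *Klf13* was also lost with quantile normalisation (0.058) and upper-quartile scaling (0.15), and that of *Klf15* with no filter (0.081) and edgeR (0.06).

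Against iNPs, 7 members were higher in eUBs, where 25.8% of all genes were called higher and 26.3% lower. *Klf6* was higher by 4.68 (adjusted p = 4.6e-09), *Klf5* by 4.49 (adjusted p = 1.6e-08), *Klf2* by 4.30 ± 0.15 (adjusted p = 1.6e-08) and *Klf4* by 3.46 (adjusted p = 4e-07). *Klf10*, *Klf7* and *Klf3* were higher by 1.46, 1.31 and 0.95. *Klf9*, *Klf13* and *Klf15* did not pass the test, but *Klf9* was called lower without iNP replicate 2 (adjusted p = 0.012). Upper-quartile scaling shifted the median of all genes by -0.12, which changed no call of a member here.

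Between iNPs and iSPs, which came from the same mESC line, *Klf10* was higher in iNPs by 0.38 ± 0.08 (adjusted p = 0.0051) and *Klf3* lower by -0.67 ± 0.17 (adjusted p = 0.013), where 16.5% of all genes were called higher and 14.2% lower. The difference of *Klf5*, not tested, was 0.56 ± 0.13, at 1.08 to 1.99 against 0.743 to 0.960. iNP replicate 2 decided several values: it had the lowest level of its group for *Klf3*, *Klf4*, *Klf5*, *Klf6*, *Klf7*, *Klf9*, *Klf10* and *Klf13*, and without it 5 of the 8 were called, adding *Klf9* (adjusted p = 1.3e-05), *Klf13* (0.00033) and *Klf7* (0.0039), each higher in iNPs, where 23.5% of all genes were called higher and 21.4% lower. In a fit of all 36 libraries the call of *Klf10* was lost (adjusted p = 0.50) and *Klf9* was called (0.027).

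**Figure D5:**
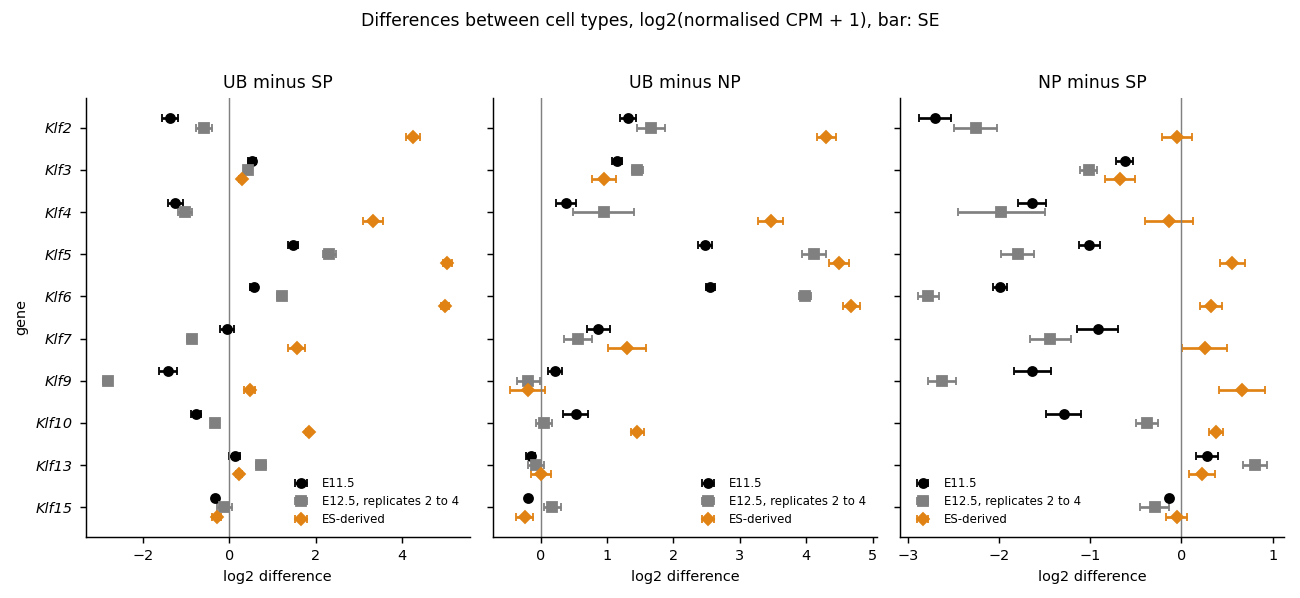
Differences between cell types in log2(normalised CPM + 1) for the 10 KLFs, within E11.5 (n = 4 and 4), within E12.5 from replicates 2 to 4 (n = 3 and 3) and within ES-derived cells (n = 4 and 4), with the standard error where the gene passed the filter (Klf15 within E11.5 has none). Klf5 and Klf6 lie above 0 in every comparison of UB or eUB with the other types, and their differences are largest in the ES-derived cells, where those with iSPs use libraries on which both genes were selected.

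Over the 36 libraries, the levels of *Klf5* and *Klf6* were the most alike of the 45 pairs of members, with Pearson's r of 0.959 on the log2(value + 1) scale, and those of *Klf13* and *Klf15* the least, with -0.73. The 36 include the E11.5 SP and iSP libraries on which *Klf5* and *Klf6* were selected, and over the other 28 libraries their r was 0.947, again the highest of the 45. The median was 0.401, and 18 pairs were above 0.5. These are descriptions of 9 groups of 4 libraries that share cell types and, in replicate 1 of the E12.5 groups, raised heat-shock genes. Among 16001 genes, the most like *Klf6* were *Fosl2* (0.973), *Btg2* (0.960) and *Klf5*, and the most like *Klf5* were *Palm3* (0.978), *Elf1* (0.968) and *Klf6*. Among the nearest to *Klf4* were *Egr3* (0.932) and *Gem* (0.919), among the nearest to *Klf10* were *Dnajb1* (0.884) and *Tob2* (0.855), and the most like *Klf2* were *Zfand5* (0.888), *Egfl6* (0.887) and *Plpp5* (0.882). *Klf9* was most like *Nfatc1* (0.950), *Hba-x* (0.939) and *Fam107b* (0.934), of which *Hba-x* is an embryonic globin of erythroid cells. *Klf7* was most like *Ctgf* (0.917), *Ptgs2* (0.915) and *Ahnak* (0.911), and *Klf3* most like *Ano6* (0.910), *Anpep* (0.895) and *Ubash3b* (0.879). The nearest genes were *Rnf44* (0.913), *Atg16l2* (0.894) and *Baz1a* (0.894) for *Klf13*, and *2410022M11Rik* (0.935), *Fam35a* (0.928) and *Cdca2* (0.927) for *Klf15*.

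Genes that act with or upstream of the KLFs were compared between ES-derived and E11.5 cells, where 32.1% of all genes were called higher and 28.5% lower in eUBs, 35.5% and 32.1% in iSPs, and 35.5% and 29.2% in iNPs. Their lists were chosen with earlier results of these libraries known. The calls here and in the next paragraph are thus a description and no independent test. Of 15 immediate-early genes, 12 were higher and *Socs3* was lower in eUBs, with a summed level of 6700 to 9417 against 2879 to 4159 in E11.5 UB. *Egr1*, an immediate-early zinc finger factor, was higher by 2.31 ± 0.21 (adjusted p = 8.9e-06). In iSPs 5 were higher and 8 lower, and in iNPs 7 and 7. Of 6 heat-shock genes, 6 were lower in iSPs and in iNPs, and in eUBs 4 were lower and *Dnajb1* higher. Heat-shock genes summed to 2188 to 3535 in eUBs against 4049 to 4162 in E11.5 UB, and to 1202 to 1408 in iSPs against 3939 to 5297 in E11.5 SP. The immediate-early sum thus stood higher in eUBs together with *Klf2*, *Klf4* and *Klf10* while the heat-shock sum stood lower, and in iSPs both stood lower together with 8 KLFs, the immediate-early sum at 2363 to 2842 against 3417 to 4051. The part of these genes in the KLF values was not tested.

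Of 9 cofactors and ligases of KLFs, 7 were lower in iSPs and 7 in iNPs with none higher, and 3 were lower and *Sin3a* and *Sin3b* higher in eUBs. *Ctbp2*, a corepressor bound by *Klf3*, was lower in all 3 (-0.79, -0.95 and -0.81 in eUBs, iSPs and iNPs). Of 7 genes of the ERK5-MEF2 pathway, which drives *Klf2* and *Klf4* in endothelium, 5 were lower and *Map2k5* higher in both eUBs and iSPs, and in iNPs 4 were lower and *Map2k5* and *Mef2c* higher. *Mef2a*, a transcription factor of this pathway, had a log2 difference of -0.36 in eUBs, -1.93 in iSPs and -1.54 in iNPs. Of the glucocorticoid receptor and its targets, which control *Klf9* and *Klf15* in other tissues, 3 of 5 tested were lower in eUBs, 3 of 6 in iSPs and 5 of 6 in iNPs, with none higher. The receptor gene *Nr3c1* stood at 73.3 ± 8.9 (SD, n = 4) in E11.5 SP and at 16.5 ± 0.31 in iSPs. Of 10 genes of the TGF-beta pathway, which induces *Klf10*, 2 were higher and 6 lower in eUBs, 2 and 6 in iSPs, and 3 and 5 in iNPs. *Smad7*, its feedback inhibitor, was lower in all 3 (-0.83, -1.20 and -0.78).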

How the data were processed

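RNA sequencing values of 36 samples in 9 groups of 4 were used. Per the labels and methods, stranded mRNA libraries were trimmed with cutadapt, aligned with STAR and normalised with edgeR; the counting program and its use of strand are not given in the sources used here, and the genome is written as GRCh38 although all identifiers are of mouse genes. The deposited signal values are CPM (reads per mega-read), to which the authors had applied the normalisation of edgeR. The deposited log2 fold changes, p-values and FDR values of the authors' own comparisons were not used. Positions are from GENCODE vM21 (GRCm38) and promoters from RefSeq (GRCm38.p6).

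Divided by the worth of 1 read, 100% of the values of every library were whole (tolerance 0.01), which gave the reads. Depths ran from 13.0 to 52.5 M (mega-reads); intervals are not given for single values, and p-values measure the spread between samples. The test used limma 3.58.1 in R 4.3.3 (lmFit and a trended eBayes) on log2(value + 1), with only the groups compared and only genes that reached 1 in 4 or more of their 8 libraries (4 of 16 for the interaction). Called means an adjusted p-value (Benjamini-Hochberg, over all genes tested) under 0.05. In tested comparisons that use E11.5 SP or iSP libraries, calls were counted without *Klf5* and *Klf6*, which were selected on these libraries. Tables and plots used Python 3.11.15, pandas 2.3.3, numpy 2.4.6 and matplotlib 3.10.9. The steps were tested on simulated data.

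The members and the 15 gene lists were chosen with earlier results of these data known. The genes named are the 10 members, the list genes called where 5 or fewer were, up to 4 genes of the highest mean level in each list, *Klf1*, and the 3 genes most like each member by Pearson's r, of which 1 gene is not reported here; *Nr3c1*, *Smad7*, *Mef2a*, *Ctbp2*, *Egr1* and *Dnajb1* are among these.

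The replicate numbers 1 to 4 come from the titles. They pair samples where every same-numbered pair's deviations from the group means correlate above 0.1; this held only for E12.5 NP with E12.5 SP (r of 0.519 to 0.682, each of 4 samples best with its own number). The labels do not say that a number marks the same kidneys. Alternatives were a pseudocount of 0.1, no filter, a filter of 5, quantile and upper-quartile scaling, edgeR 4.0.16 (quasi-likelihood) on the recovered reads, a fit of all 36 libraries, the replicate block, a test against a log2 difference of 1, and each library left out in turn. Leaving out replicate 1 of the E12.5 groups together was added after the data had been seen.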

Additional observations from a re-analysis of the deposited data

Results flagged for a closer look

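In 14 of 90 sets of 4 libraries (10 genes in 9 groups), the highest or the lowest library lay apart from the others by Dixon's criterion, which chance alone meets in about 1 of 20 sets. Of the 14, 11 were replicate 1 of an E12.5 group. In E12.5 NP replicate 1 the high values were *Klf2* at 13.73 normalised CPM, *Klf5* at 17.36, *Klf6* at 109.4, *Klf10* at 115.1 and *Klf15* at 2.339. In E12.5 SP replicate 1, *Klf2* at 48.43, *Klf4* at 284.3 and *Klf10* at 101.2 were high and *Klf3* at 45.77 and *Klf9* at 36.94 low. In E12.5 UB replicate 1 *Klf10* was high at 81.46. The other 3 were *Klf7* in E11.5 NP replicate 1, high at 40.53, *Klf6* in iSP replicate 3, low at 18.1, and *Klf9* in iNP replicate 2, low at 3.279.

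For 3 genes every ES-derived library moved one way from the E11.5 libraries in one cell type and the other way in another; the difference between the types was not tested. *Klf2* differed by 3.52 on the log2 scale in eUBs, by -2.116 in iSPs and by 0.5369 in iNPs. Its difference in iNPs was 0.145 with quantile normalisation, and its iNP levels overlapped those of E12.5 NP. *Klf4* differed by 1.84 in eUBs, by -2.736 in iSPs and by -1.236 in iNPs. *Klf10* differed by 1.005 in eUBs and by -1.596 in iSPs. Against E12.5 cells *Klf10* differed by 1.59 in eUBs and by -0.56 ± 0.33 in iSPs, and by -0.17 ± 0.07 in iSPs without E12.5 SP replicate 1, so that the size of its difference in iSPs rests on the age compared with.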

How the results depend on the processing

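No difference of a member that had passed the test changed direction under the alternatives run. The number of members called, without *Klf5* and *Klf6* where E11.5 SP or iSP libraries enter, moved as follows. Against a log2 difference of 1 it was 0 in the 3 age comparisons and between iNP and iSP, 0, 2 and 2 for E11.5 UB minus SP, UB minus NP and NP minus SP (from 5, 7 and 6), 2 and 1 for E12.5 UB minus SP and NP minus SP, and 3 for eUB minus iSP. With no filter or a filter of 5 the NP age comparison had 1 (from 3), and with the filter of 5, which *Klf15* does not reach, the SP age comparison had 0 (from 1). edgeR called 3 for E12.5 NP minus SP (from 5) and 3 between iNP and iSP (from 2); over all genes it called 861 against 850 with limma in the NP age comparison and 9402 against 9411 for iSP minus E11.5 SP. The fit of all 36 libraries called 2 in the UB age comparison (from 5) and in the SP one (from 1), 8 for E12.5 UB minus SP and for NP minus SP (from 5 each), and 4 for eUB minus iSP (from 8). Upper-quartile scaling called 3 between iNP and iSP. Where all 36 libraries were fitted, the calls lost were those of *Klf5*, *Klf6* and *Klf7* in the UB age comparison, *Klf3* and *Klf10* for E11.5 UB minus SP, *Klf4* and *Klf10* for E11.5 UB minus NP, *Klf3*, *Klf9*, *Klf13* and *Klf15* for eUB minus iSP and *Klf10* for iNP minus iSP (adjusted p of 0.061 to 0.52).

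With the replicate number as a block, 3 members were called in the UB age comparison, where the samples share only a number, and 8 for E12.5 NP minus SP, where they deviate together; other counts were within 1.5 times. Leaving out each library in turn gave 1 to 4 calls in the NP age comparison, 1 to 4 in SP, 3 to 7 in UB, 5 to 5, 5 to 7 and 6 to 7 in the 3 comparisons of E11.5 types, 3 to 6, 3 to 5 and 3 to 6 for E12.5 UB minus SP, UB minus NP and NP minus SP, 6 to 8, 7 to 8 and 2 to 5 for eUB minus iSP, eUB minus iNP and iNP minus iSP, and 0 to 1 for the interaction. Without the E12.5 replicate 1 libraries, 9 members were called for UB minus SP and for NP minus SP and 1 in the interaction (from 0). The cause of these moves was not tested, beyond the fewer samples of the leave-one-out fits. Levels of *Klf15* near 1 limit its fold change on this scale.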

Other observations

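Members of the KLF family outside the 10 also differed between ES-derived and E11.5 cells. The lists in this section, too, were chosen with earlier results of these libraries known. Their calls and p-values are thus a description and no independent test. *Klf16*, a broadly expressed repressor, was at 115.3 ± 8.1 normalised CPM (SD, n = 4) in E11.5 SP and at 24.7 ± 2.2 in iSPs, a log2 difference of -2.18 ± 0.09 (limma, adjusted p = 1.2e-07), and at -1.28 in iNPs (adjusted p = 2.6e-06) and -0.47 in eUBs (adjusted p = 0.014). *Klf11*, the relative of *Klf10*, was higher in eUBs, at 71.1 ± 4.0 against 35.002 ± 4.3 (1.01 ± 0.10, adjusted p = 1.3e-05), and in iNPs (0.40, adjusted p = 0.012), and in iSPs its difference was -0.05 (adjusted p = 0.71). *Klf12* was higher in eUBs (1.30, adjusted p = 0.00010) and iSPs (0.58, adjusted p = 0.0016). *Klf8* was lower in both (-0.48 and -0.45, adjusted p = 0.016 and 0.0027), and *Klf14* was higher in iSPs (0.999, adjusted p = 0.00032) and lower in iNPs (-0.90, adjusted p = 0.00045).

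In the Sp family, whose zinc fingers resemble those of the KLFs, 4 of 9 genes tested were higher in eUBs than in E11.5 UB (*Sp4*, *Sp5*, *Sp7* and *Sp9*) and *Sp2* was lower, where 32.1% of all genes were called higher and 28.5% lower. In iSPs 2 of 5 tested were lower (*Sp2* and *Sp3*) and none was higher, where 35.5% of all genes were called higher and 32.1% lower, and in iNPs 4 of 7 tested were lower and *Sp6* and *Sp8* higher, where 35.5% and 29.2% were. *Sp3* was at 213 ± 12 in E11.5 NP and at 96.1 ± 22 in iNPs (-1.17 ± 0.16, adjusted p = 0.00017). Of the list of naive pluripotency genes, a network of which *Klf2*, *Klf4* and *Klf5* are known parts, 2 of 4 tested were higher in eUBs and 1 lower, 4 of 5 higher and 1 lower in iSPs, and 3 of 4 higher and 1 lower in iNPs. *Tfcp2l1*, which the ureteric bud also expresses, was the lower gene in each.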
